A study of Mus musculus with 3 samples.

Results

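The IFITM genes Ifitm1, Ifitm2 and Ifitm3 were read in 3 RNA-seq libraries of mouse follicular regulatory T (TFR) cells, 1 library per genotype. These 3 of the 25759 genes in the files were picked by name, because Ifitm1 had one of the largest increases between the last 2 libraries described here. That increase is therefore a description and not a finding, and with 1 library per genotype no test between genotypes was possible. Intervals given below cover the counting error of the reads and not the spread between mice.

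TFR cells were sorted as CD4+B220-GFP+CXCR5+GITRhi from spleen and mesenteric lymph nodes. The mice had received 125 µg NP-KLH in alum, were boosted on day 7 and were analysed on day 10. All mice carried FIC, a Cre expressed from the Foxp3 locus, and 1 Prdm1 allele in which gfp reports the gene for Blimp-1. FIC is active in Tregs and, according to the study, to some extent in conventional T cells. The library labelled N came from Nfatc1fl/fl.Prdm1gfp/+.FIC mice and is labelled NFATc1-deficient. The library labelled αA came from Nfatc1caaA.Prdm1gfp/+.FIC mice and is labelled as overexpressing NFATc1/aA, a short isoform of the transcription factor NFATc1, here in constitutively active form. The library labelled PαA came from Nfatc1caaA.Prdm1gfp/fl.FIC mice. These carry a floxed Prdm1 allele in place of the + allele of N and αA, and are labelled Blimp-1-deficient. Mouse age and the number of mice in each library were not given in the sources used here. The library totals behind the values were 29726219, 27239921 and 25465829 reads for N, αA and PαA, of which 27637953, 24258845 and 23269443 lay in exons.

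The targeted genes were read first, as a check of the labels. Nfatc1 had an RPKM, that is exon reads scaled to the exon length and to the library total, of 63.6 in N, 62.9 in αA and 32.4 in PαA. The gene was thus not lower in the library labelled NFATc1-deficient than in αA, and it was lowest in PαA, although αA and PαA carry the same Nfatc1caaA label. Reads over the gene do not separate deleted exons or a transgene from the rest, so each library is named here by its label only. Prdm1 had an RPKM of 25.6, 24.9 and 10.0 in the same order and was lowest in the library labelled Blimp-1-deficient. All 13 TFR and sort genes looked at had reads in every library. Foxp3 lay at RPKM 32.7, 20.9 and 15.3, Cxcr5 at 48.3, 81.3 and 47.6, and Cd4 at 488, 396 and 341, in the order N, αA and PαA. All 13 were lower in PαA than in αA, with a median log2 ratio of -0.58, beside -0.08 over all genes with an RPKM above 1.

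IFITM proteins are small proteins of the plasma membrane and of endosomal membranes that hinder the fusion of enveloped viruses with the cell. IFITM1 is found mainly at the cell surface, where it is also known as CD225, and IFITM3 mainly in late endosomes and lysosomes. Type I and type II interferons induce the genes in many cell types through transcription factor complexes that bind the interferon-stimulated response element (ISRE) or the gamma-activated site (GAS) of a promoter. In lymphocytes IFITM proteins associate with tetraspanins such as CD81. Blimp-1, the product of Prdm1, is a transcriptional repressor whose binding sequence resembles that of interferon regulatory factors.

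The 3 genes lie within 55934 bp of chromosome 7 (GRCm38). Ifitm2 (ENSMUSG00000060591) spans positions 140954837 to 140955987 on the minus strand and has 2 exons. Ifitm1 (ENSMUSG00000025491) follows at 140967221 to 140969825 on the plus strand, with 3 annotated transcripts that differ upstream of a shared coding sequence. Ifitm3 (ENSMUSG00000025492) lies at 141009586 to 141010770 on the minus strand and again has 2 exons. The annotated coding sequences have 321, 435 and 414 nucleotides for Ifitm1, Ifitm2 and Ifitm3, which gives proteins of 106, 144 and 137 residues. Aligned in pairs, the coding sequences were 81.6% identical between Ifitm1 and Ifitm2, 81.9% between Ifitm1 and Ifitm3 and 80.8% between Ifitm2 and Ifitm3.

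The promoter sequences of the members, from RefSeq (GRCm38.p6), are shown because the members differed in level and because interferon and Blimp-1 act at such elements. Each runs 5′ to 3′ on the strand of its gene, from 250 bases before to 50 bases after the annotated start. Capitals mark each match to the ISRE core GAAANNGAAA. The windows are chr7:140967826-140968125 on the plus strand for Ifitm1, chr7:140955912-140956211 on the minus strand for Ifitm2 and chr7:141010695-141010994 on the minus strand for Ifitm3.
Ifitm1: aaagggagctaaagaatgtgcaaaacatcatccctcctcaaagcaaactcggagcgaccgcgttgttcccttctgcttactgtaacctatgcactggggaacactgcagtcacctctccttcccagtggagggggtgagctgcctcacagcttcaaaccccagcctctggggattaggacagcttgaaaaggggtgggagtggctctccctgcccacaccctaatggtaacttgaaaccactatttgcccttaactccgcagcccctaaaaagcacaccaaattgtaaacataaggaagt
Ifitm2: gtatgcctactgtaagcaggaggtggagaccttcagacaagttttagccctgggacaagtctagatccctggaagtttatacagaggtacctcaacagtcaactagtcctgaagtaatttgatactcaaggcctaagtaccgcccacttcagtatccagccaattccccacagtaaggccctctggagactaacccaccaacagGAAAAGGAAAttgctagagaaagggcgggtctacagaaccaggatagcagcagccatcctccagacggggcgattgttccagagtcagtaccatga
Ifitm3: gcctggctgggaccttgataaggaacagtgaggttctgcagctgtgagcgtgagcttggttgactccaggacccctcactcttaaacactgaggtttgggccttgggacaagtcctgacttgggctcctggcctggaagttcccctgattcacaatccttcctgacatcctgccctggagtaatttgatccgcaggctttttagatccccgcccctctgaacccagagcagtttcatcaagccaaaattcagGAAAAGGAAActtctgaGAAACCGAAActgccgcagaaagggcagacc

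In these windows, searched on both strands, the ISRE core had 0 matches for Ifitm1, 1 for Ifitm2, at position -46 from the start, and 2 for Ifitm3, at positions 3 and 20, counted from 1 at the start. Of 32851 promoters of the same length, 3.4% held this core. The GAS letters TTCNNNGAA were found in the Ifitm3 window only, at position 14, where they overlap the second ISRE core, and in 8.3% of all promoters. The letters AGNGAAAG, used for the core of a Blimp-1 sequence, were found in the Ifitm2 window only, at position -31, apart from the ISRE core, and in 8.6% of all promoters. The letters GGAAA, the core that NFAT factors recognise, matched 2 times each in Ifitm2 and Ifitm3, all overlapping an ISRE core, and not in Ifitm1, while 61.3% of all promoters held them. Ifitm1 had no match to any of these motifs, which says only that the letters are not in this window. The window covers the starts of 2 of its 3 annotated transcripts, and the other begins further upstream, at position 140967221. A match describes letters and not binding, and binding was not measured in these libraries.

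Ifitm1 was low in N and αA, below RPKM 1, and far higher in PαA. The library N held 30 exon reads of the gene, αA 19 and PαA 436. The level was RPKM 0.922 (95% Poisson interval 0.622 to 1.32) in N, 0.638 (0.384 to 0.996) in αA and 15.6 (14.2 to 17.2) in PαA. The PαA interval lies far above the other two, which overlap each other. The log2 ratio of PαA to αA was 4.62 (95% Clopper-Pearson interval 3.96 to 5.36), a 24.5-fold difference, and that of PαA to N was 4.08 (3.55 to 4.67), a 17.0-fold difference. Between αA and N the log2 ratio was -0.53, with an interval from -1.44 to 0.34 that includes 0. By all exon reads a difference between these libraries was not detectable at this depth. In bulk RNA of sorted cells, more cells that express Ifitm1 and more Ifitm1 RNA per cell cannot be told apart.

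By all exon reads Ifitm2 was the most abundant member in N and PαA, and it was lowest in αA. Its exon reads numbered 475 for N, 234 for αA and 1007 for PαA. The level was RPKM 24.4 (22.3 to 26.7) in N, 13.1 (11.5 to 14.9) in αA and 60.4 (56.7 to 64.2) in PαA. No pair of these intervals overlaps. The log2 ratio was -0.90 (-1.13 to -0.67) for αA over N, 2.20 (2.00 to 2.41), or 4.60-fold, for PαA over αA, and 1.31 (1.15 to 1.47), or 2.47-fold, for PαA over N.

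Ifitm3 was the only member that was higher in αA than in N, and it had the smallest span of levels. Its exon reads numbered 154 for N, 196 for αA and 314 for PαA. The level was RPKM 7.64 (6.48 to 8.95) in N, 10.6 (9.18 to 12.2) in αA and 18.2 (16.2 to 20.3) in PαA, again without overlap of the intervals. The log2 ratio was 0.47 (0.16 to 0.79), or 1.39-fold, for αA over N, 0.78 (0.52 to 1.04), or 1.71-fold, for PαA over αA, and 1.25 (0.97 to 1.54), or 2.38-fold, for PαA over N.

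**Figure D1:**
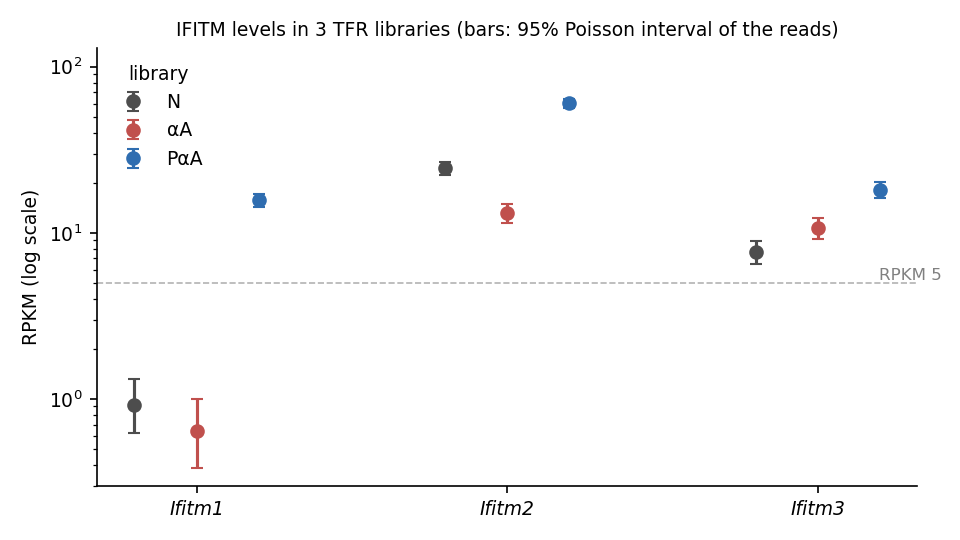
RPKM (log scale) of Ifitm1, Ifitm2 and Ifitm3 in the libraries N, αA and PαA, with the 95% Poisson interval of the reads as bars and RPKM 5 as a dashed line. Every member is highest in PαA, and Ifitm1 is above RPKM 5 in PαA only, at 15.6.

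The members thus shared their highest library but not their order in the other 2. Ifitm1 and Ifitm2 had their lowest level in αA, for Ifitm1 within counting error of N, and Ifitm3 had its lowest in N. Within a library, N had Ifitm2 highest, Ifitm3 next and Ifitm1 lowest, with separate intervals. In αA the intervals of Ifitm2 and Ifitm3 overlapped, at RPKM 13.1 and 10.6. In PαA those of Ifitm3 and Ifitm1 overlapped, at RPKM 18.2 and 15.6, with Ifitm2 above both. RPKM of Ifitm1 is divided by 1094 bases, the union of the exons of its transcripts, while the longest transcript has 882. The summed RPKM of the members was 33.0 in N, 24.4 in αA and 94.2 in PαA. Of this summed RPKM, Ifitm1 took 2.80% in N, 2.62% in αA and 16.6% in PαA, while Ifitm2 took 74.0%, 53.8% and 64.1% and Ifitm3 23.2%, 43.6% and 19.3%.

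The members were then set beside the 7017 expressed genes, whose RPKM exceeded 5 in one or more libraries. Ifitm1 entered this set through PαA alone. A ratio above 2 served as the call, without a test. For PαA over αA, Ifitm1 and Ifitm2 were past it, and 2.18% of expressed genes were higher and 2.45% lower by this rule. For PαA over N all 3 members were past it on the higher side, where 2.57% of expressed genes were higher and 7.77% lower. With unique reads (Ifitm2 at 0.70) or with centring on exon length (Ifitm3 at 0.98) only 2 were past it. For αA over N no member was past it, and 1.44% of expressed genes were higher and 2.81% lower. Nothing is read from the counts of members, since Ifitm1 chose them and the comparisons share libraries. Counted from the largest ratio of PαA to αA, Ifitm1 stood at rank 10 of 7017, Ifitm2 at rank 39 and Ifitm3 at rank 236. For PαA over N the ranks were 16, 117 and 127. For αA over N, Ifitm3 stood at rank 293 from the highest ratio and Ifitm2 at rank 281 from the lowest. The median log2 ratio of expressed genes was -0.14 for αA over N, -0.06 for PαA over αA and -0.19 for PαA over N, so the libraries differed slightly in the middle of the distribution. The ratio also moved with exon length. At the lengths of Ifitm1, Ifitm2 and Ifitm3 a smooth curve through all expressed genes stood at 0.15, 0.24 and 0.23 for PαA over αA. Centred on this curve, the log2 ratios of Ifitm1, Ifitm2 and Ifitm3 were 4.47, 1.96 and 0.54.

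**Figure D2:**
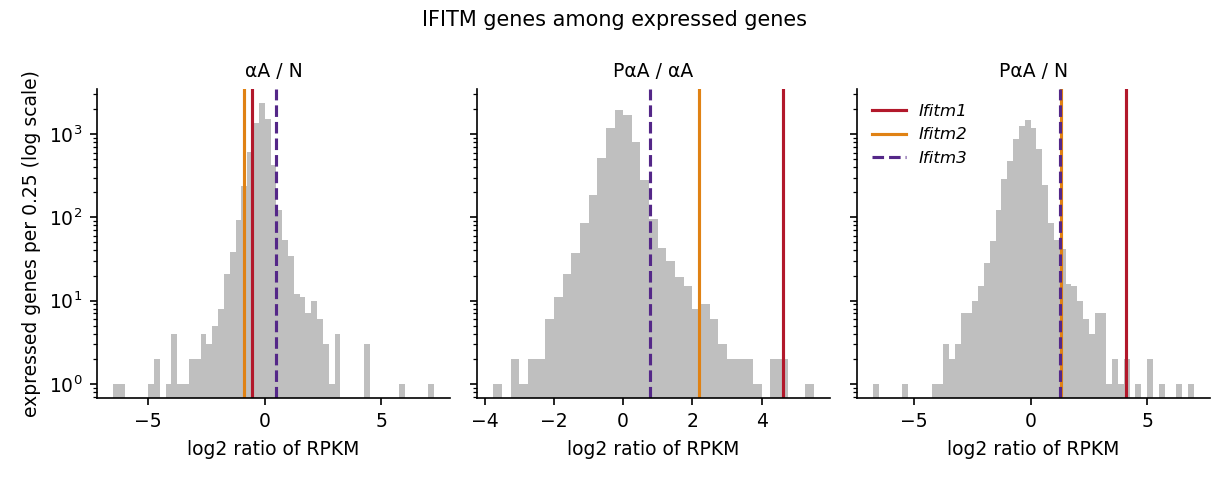
Number of expressed genes (log scale) in bins of 0.25 of the log2 ratio of RPKM for the 3 comparisons, with vertical lines for the members (Ifitm3 dashed). Genes without reads in one of the 2 libraries are not drawn. For PαA over αA the lines stand at 0.78, 2.20 and 4.62 for Ifitm3, Ifitm2 and Ifitm1.

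The IFITM genes are near-identical in places, so the kinds of reads behind each value were compared. For Ifitm1 the reads were nearly all unique, with 30 of 30 in N, 19 of 19 in αA and 422 of 436 in PαA. Unique reads gave a log2 ratio of 4.57 (3.91 to 5.32) for PαA over αA. Reads across exon junctions numbered 10, 0 and 51, and the 95% counting interval of the log2 ratio of PαA to αA began at 3.83. By junction reads alone the interval of αA over N ended at -1.04 and excluded 0, on 0 against 10 reads. They gave 2.57 (1.58 to 3.72) for PαA over N, a smaller ratio than the 4.08 of all exon reads. Introns of Ifitm1 held 0 reads in every library. Ifitm3 was read almost as uniquely, with 95.5%, 93.9% and 98.1% of exon reads unique in N, αA and PαA. Its junction reads were 20, 30 and 37 and gave log2 ratios of 0.40 (-0.33 to 1.14) for PαA over αA and 1.11 (0.29 to 1.97) for PαA over N.

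Ifitm2 differed from both. Only 101 of 475 reads in N, 18 of 234 in αA and 141 of 1007 in PαA were unique, which is 21.3%, 7.69% and 14.0%. By unique reads the log2 ratio of αA to N was -2.36 (-3.17 to -1.63), past the 2-fold line that all exon reads did not reach. That of PαA to αA was 3.07 (2.35 to 3.86) and that of PαA to N only 0.70 (0.33 to 1.09). Junction reads, which numbered 75, 14 and 99, gave -2.30, 2.92 and 0.62 for the same comparisons. The reads that were not unique, 374, 216 and 866, gave -0.67, 2.10 and 1.43. Every kind of read put Ifitm2 lowest in αA and highest in PαA, but the distance of N from the other libraries depended on the kind. The order of Ifitm2 and Ifitm3 in αA did too. Junction reads of Ifitm2 outnumbered those of Ifitm3 in N and PαA, with 75 against 20 and 99 against 37, but not in αA, with 14 against 30. Unique reads were fewer for Ifitm2 than for Ifitm3 in every library, with 308 for Ifitm3 in PαA.

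The annotation shows where Ifitm2 is not unique. Of its 597 windows of 59 bases, the read length, 276 (46.2%) also occurred in a transcript of another gene, among them Ifitm3, the overlapping Gm45717 and pseudogenes such as Gm8865 and Gm2840. The share was 80.8% within exon 1, 23.7% within exon 2 and 0 of 58 windows across the junction. Gm45717 is a read-through gene on the same strand, whose exon 1 (140955670 to 140955937) lies inside exon 1 of Ifitm2 and whose exon 2 lies inside exon 2 of Ifitm5. It had 0 exon reads in all 3 libraries. For Ifitm3, 37 of 620 windows (6.0%) were shared, and for the transcripts of Ifitm1 between 3.4% and 5.6%. How the counting divided reads among these genes was not tested, and the total reads of Ifitm2 are uncertain for this reason.

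**Figure D3:**
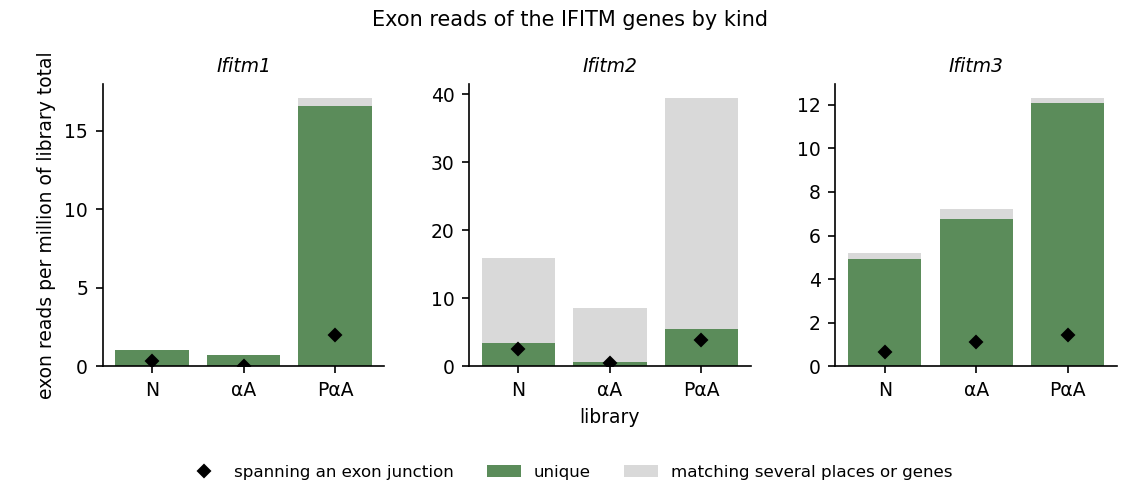
Exon reads divided by the library total and scaled as in CPM (bars from 0), split into unique reads and reads with several matches, for each member in N, αA and PαA, and reads across exon junctions as diamonds. Each panel has its own axis. The bars of Ifitm2 consist mostly of reads with several matches, with 21.3%, 7.69% and 14.0% unique.

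Other genes of the family were nearly silent. Ifitm5, the bone-restricted member, had 0, 0 and 2 exon reads in N, αA and PαA, Ifitm6 had 2, 4 and 0, and Ifitm7 had 0 in each. Ifitm10, a more distant relative, had 59, 126 and 127 reads, at RPKM 0.473, 1.10 and 1.19, and did not reach RPKM 5. Unlike the 3 members it was higher in αA than in N by more than 2-fold, at a log2 ratio of 1.22 (0.76 to 1.69), and close to equal in αA and PαA. Of 7 other genes with a CD225 domain, only Prrt1 passed RPKM 5. Prrt1 had an RPKM of 2.38, 5.37 and 3.42 and so was highest in αA.

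Within 100 kb of the members lie 16 other genes of the files, of which 7 were expressed. None of the 7 was past a 2-fold ratio in any comparison, near the same background. For PαA over αA their log2 ratios ran from -0.56 to 0.38. The lowest was that of B4galnt4, a glycosyltransferase gene, and the highest that of Psmd13, a proteasome subunit gene, with RPKM 42.8, 41.1 and 53.5. Pgghg, the nearest expressed gene on the Ifitm2 side, had RPKM 11.1, 9.53 and 8.52 and was thus lowest in PαA. Ifitm6, next to Ifitm3, was at or near 0. Psmd13 and Bet1l were higher in PαA than in αA by less than 2-fold, and none of the 7 reached the ratio of any member.

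**Figure D4:**
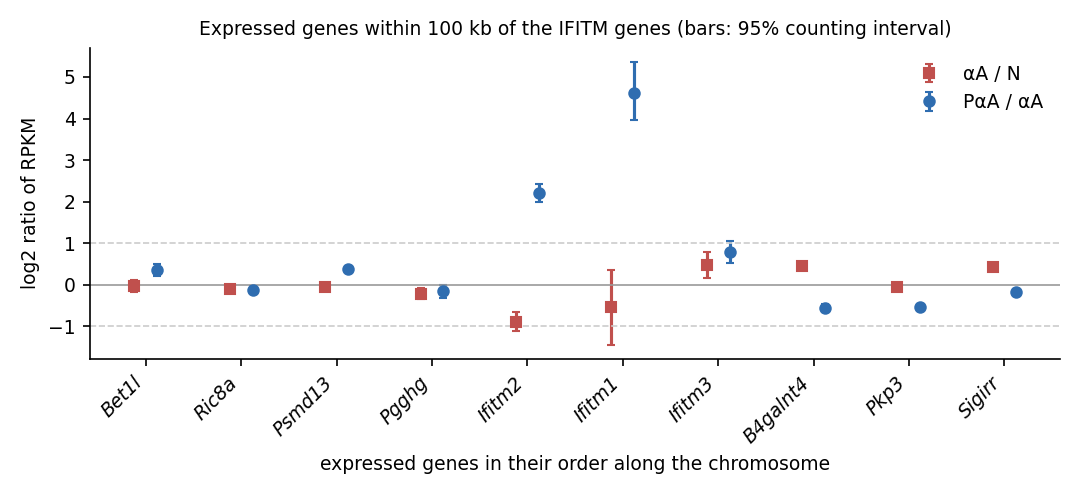
Log2 ratio of RPKM for αA over N (squares) and PαA over αA (circles) of the expressed genes within 100 kb, in chromosomal order and not to scale, with 95% counting intervals. The 7 neighbours stay between -0.56 and 0.45, while Ifitm2 and Ifitm1 reach 2.20 and 4.62 for PαA over αA.

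Since interferons induce IFITM genes, the interferon system was read in the same way, from ligands to target genes. Ifng, which encodes the type II interferon, had RPKM 20.5, 18.1 and 24.6 in N, αA and PαA. Ifna1, Ifna2, Ifna4, Ifnl2 and Ifnl3 were at 0 reads in every library, and Ifnb1 had 5 reads in N and 0 in αA and PαA. Ifngr1, the ligand-binding chain of the interferon-γ receptor, had RPKM 86.7, 124 and 173 and was highest in PαA. Ifngr2, its signalling partner chain, had RPKM 3.69, 2.44 and 5.01 and was past 2-fold for PαA over αA, at a log2 ratio of 1.04. Ifnar1, a chain of the type I receptor, went the other way, with RPKM 19.4, 12.2 and 7.96, and Ifnar2, the other chain, hardly differed, with a log2 ratio of -0.16 for PαA over αA.

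Of the 14 signal transducers, all expressed, none was past 2-fold for PαA over αA, where 2.18% of all expressed genes were higher and 2.45% lower, so a count of 0 is near that background. Jak2, a kinase of the interferon-γ receptor, had RPKM 34.3, 16.9 and 9.24 and was past 2-fold, lower, for αA over N and for PαA over N. Stat2 was lower for PαA over N, with a log2 ratio of -1.09. Usp18, a brake on type I signalling, was higher for PαA over N, with RPKM 2.64, 5.24 and 5.30. Socs1, an inhibitor of the kinases, was highest in PαA, with RPKM 35.3, 30.7 and 55.3, and was not past 2-fold. Irf7 hardly differed, with RPKM 15.9, 13.7 and 13.8.

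The target genes of type I interferon were mostly at or below their αA level in PαA. Of 55 listed, 41 were expressed, and for PαA over αA none was past 2-fold on the higher side and 1, the Schlafen family gene Slfn8, on the lower, near the background of 2.18% and 2.45%. The median log2 ratio over the 49 with an RPKM above 1 was -0.28, with 10 above 0 and 39 below, beside -0.08 over all genes at that level. Isg15, a ubiquitin-like modifier, had RPKM 47.8, 44.6 and 30.4 and was lowest in PαA. For αA over N none was past 2-fold in either direction, near the background of 1.44% higher and 2.81% lower. The median was -0.14, beside -0.17 over all genes, and 0.019 when the libraries were scaled by TMM factors. For PαA over N only Usp18 was higher and 7 were lower, among them Ifih1 and Ifit2, beside 2.57% and 7.77% of all expressed genes, with a median of -0.44 beside -0.24. This median was -0.21 with TMM factors and -0.12 with centring on exon length. Ifitm1, Ifitm2 and Ifitm3 were not part of this list.

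For interferon-γ targets, 25 of 30 listed were expressed and none was past 2-fold for PαA over αA or for αA over N. Of all expressed genes, 2.18% were higher and 2.45% lower for PαA over αA, and 1.44% and 2.81% for αA over N. Counts of 0 are near that background. The medians were -0.25 and -0.09, beside -0.08 and -0.17 over all genes with an RPKM above 1. With TMM factors the median for αA over N was 0.073. For PαA over N none was higher and 4 were lower, the GTPase genes Gbp4, Gbp5, Gbp7 and Iigp1, beside a background of 7.77% lower, with a median of -0.37, which was -0.14 with TMM factors and -0.13 with centring. Of 14 other genes that restrict viruses, 9 were expressed and none was past 2-fold in any of the 3 comparisons, near the background of 1.44% to 7.77% in a direction. Their median for PαA over αA was -0.39, beside -0.08 over all genes with an RPKM above 1. This median was not recomputed with other settings. Bst2, which tethers budding virions, had RPKM 71.1, 88.4 and 87.9, and Samhd1, which lowers the pool of deoxynucleotides, had 84.6, 71.0 and 60.0.

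**Figure D5:**
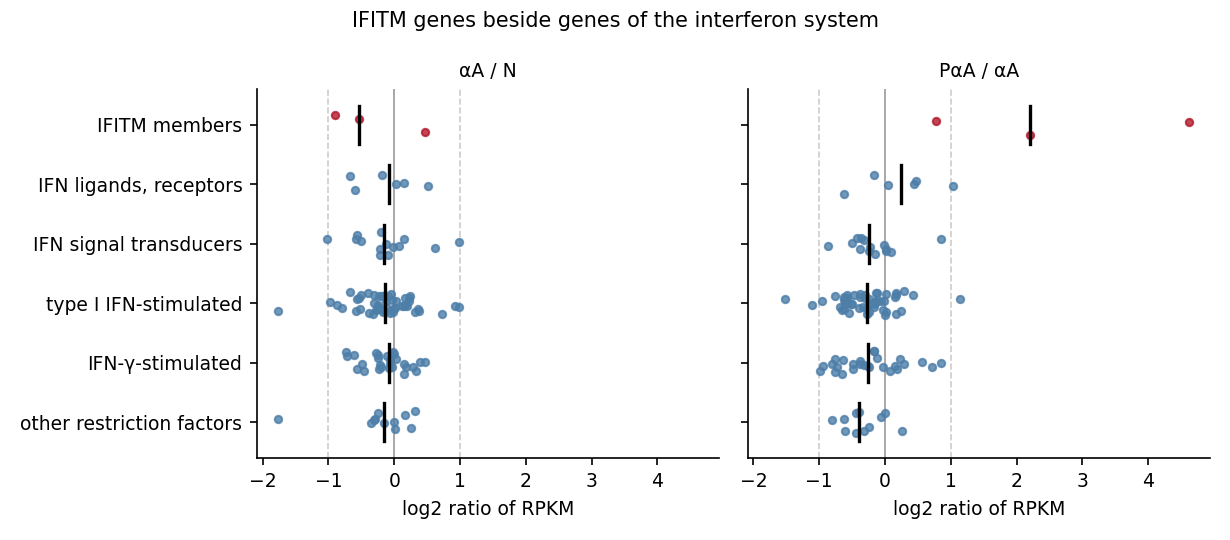
Log2 ratios of RPKM of the IFITM members and of genes of the interferon system with an RPKM above 1, for αA over N and PαA over αA. Each point is a gene, black bars are medians, and genes without reads in a library compared are left out. For PαA over αA the medians of type I and interferon-γ targets lie at -0.28 and -0.25, and the members at 0.78, 2.20 and 4.62.

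Of 10 genes whose products bind or modify IFITM proteins, 7 were expressed, and only Cd81 and Cd9 were past 2-fold in any comparison, beside 1.44% to 7.77% of all expressed genes in a direction. Cd81, the tetraspanin named above, had RPKM 145, 57.0 and 40.8 and was past 2-fold, lower, for αA over N (log2 ratio -1.35) and PαA over N (-1.83). Cd9, a related tetraspanin, had RPKM 24.6, 41.7 and 73.4 and was past 2-fold, higher, for PαA over N (1.58). It was highest in PαA and lowest in N. Zdhhc20, which palmitoylates IFITM3, had RPKM 26.1, 18.1 and 19.6. Setd7, which methylates it, had 6.19, 4.56 and 3.24, and Nedd4, which ubiquitinates it, had 1.48, 1.35 and 1.35. The metalloprotease gene Zmpste24 (25.6, 26.6 and 27.2) and Vapa (50.3, 48.6 and 51.9), which encodes a membrane contact protein that IFITM3 binds, hardly differed.

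The genes most like each member were taken by the distance between their log2 ratios over the 3 libraries, among 6337 genes. For Ifitm1 these were Stom, Mmp25, Emp1, Hrh4 and Tcrg-C3, at distances from 1.36 to 2.08. The nearest, the membrane protein gene Stom, had RPKM 4.48, 3.41 and 32.8, and Mmp25, a membrane-anchored metalloproteinase gene, had 1.36, 2.20 and 23.3. For each of these 5 the ratio of PαA to αA was below that of Ifitm1. For Ifitm2 they were Lmo4, Prkd3, Sema4f, Serp2 and Rgcc, at distances from 0.15 to 0.36, and Lmo4, a LIM-only transcriptional cofactor gene, had RPKM 15.1, 8.84 and 38.1. For Ifitm3 they were AB124611, Cela1, Tnfrsf26, Jchain and 1810011H11Rik, at distances from 0.02 to 0.11. Jchain, the joining chain of secreted antibodies, had RPKM 44.3, 58.4 and 94.8. Each likeness rests on 3 libraries only.

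Myeloid and other cells express IFITM genes as well, so markers of such cells are given beside the members. The 16 neutrophil and monocyte markers found, of 17 listed, summed to RPKM 296, 168 and 262 in N, αA and PαA, with Lyz2 as the most abundant. In αA 8 of the 16 were at 0, among them Ly6g, Mpo, Elane and S100a9, and in PαA 4, Ly6g, Mpo, Elane and Cxcr2. S100a8 had RPKM 12.8, 0.831 and 11.9 and was thus close to equal in N and PαA. Of the markers above RPKM 1 with reads in both libraries, 3 were higher and 6 lower in PαA than in N. For PαA over αA, 4 were higher and 1 lower. Ly6c2, carried by monocytes and also by T cells, had RPKM 12.1, 7.99 and 26.7 and was highest in PαA. The 10 macrophage markers summed to RPKM 121, 196 and 209, led by C1qa, with Vsig4 at 0 in N and PαA.

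The 9 dendritic cell markers summed to RPKM 104, 139 and 167, led by Bst2, with Cd209a at 0 in N and Clec9a in PαA. Beneath this sum, Itgax had 121, 112 and 272 reads and H2-Ab1 1079, 1574 and 2299, both highest in PαA. Their log2 ratios were 1.38 and 0.64 for PαA over αA and 1.39 and 1.31 for PαA over N. Xcr1, Zbtb46 and Siglech were instead highest in N, with 161, 97 and 92, 135, 74 and 106, and 29, 5 and 3 reads. The 10 B and plasma cell markers found, of 11 listed, summed to 65.7, 74.4 and 117, led by Jchain, and none was at 0. Sdc1, a plasma cell marker, had 72, 91 and 495 reads, while the B cell genes Cd22, Ms4a1 and Cd79b were lowest in PαA, with 678, 283 and 200, 172, 123 and 88, and 488, 345 and 316 reads. The 9 endothelial and stromal markers summed to RPKM 34.2, 10.5 and 17.5, led by Pecam1, with Vwf at 0 in N and Pdpn in αA. Beneath this sum, Col3a1 had 673, 7 and 205 reads, Esm1 667, 9 and 195, and Col1a1 907, 36 and 188, in the order N, αA and PαA. For PαA over αA their log2 ratios were 4.97, 4.53 and 2.48, and for PαA over N -1.49, -1.55 and -2.05. Pecam1 and Cldn5 were also lower by RPKM in PαA than in N. Vwf (0, 15 and 31 reads), Pdpn (17, 0 and 24), Cdh5 (6, 32 and 17) and Kdr (17, 6 and 18) were higher. The 8 CD8 and NK cell markers summed to 86.2, 35.8 and 36.0, led by Gzma at RPKM 61.8, 3.87 and 4.92, with none at 0. The other members had no common direction. Cd8a had 18, 179 and 231 reads, Klrd1 38, 169 and 155, and Klrb1c 257, 341 and 445, whereas Cd8b1 had 400, 486 and 198, Eomes 410, 103 and 320, and Prf1 575, 460 and 535. The 9 erythroid and platelet markers summed to 574, 2410 and 2158, led by Hba-a2, with Itga2b at 0 in αA. Of its platelet genes, Ppbp had 17, 15 and 80 reads and Pf4 14, 11 and 31, both highest in PαA, while Itga2b had 15, 0 and 11. Of the 8 basophil and mast cell markers, Fcer1a, Gata2, Mcpt8 and Prss34 were at 0 in all libraries, and the sum, mostly Kit, was 1.30, 0.914 and 1.38. The part of any of these cells in the differences of the IFITM genes was not tested.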

How the data were processed

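TFR cells were sorted by flow cytometry and 1 poly(A) library per genotype was sequenced as single reads of 59 bases. After trimming, the authors used CLC Genomics Workbench 12 at default settings to map to GRCm38 and count. Whether strand was used is not given in the sources used here. They deposited whole-number counts of total, unique, junction and intron reads for 25759 genes, with RPKM and TPM. RPKM was recomputed from reads, exon length and recovered library totals, for the 22044 genes with an exon length. A total of 3 reads was the floor, which at 1 kb is RPKM 0.101, 0.110 and 0.118 in N, αA and PαA. Intervals are exact, at 95%.

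The members and gene lists were chosen with earlier results of these data known. Named genes are the members and other Ifitm genes, genes within 100 kb, targeted and sort genes, members of short lists, the genes of longer lists past 2-fold with 100 reads, Isg15 and Irf7, and the 5 genes most like each member (at least 50% unique reads, 100 reads in a library and 3 in each). Socs1, Bst2, Samhd1 and the markers are list members. Gene models are from GENCODE M21 and promoters from RefSeq. Alternatives were TMM factors (edgeR 4.0.16, R 4.3.3), TPM, unique reads, median-of-ratios factors, a pseudocount of 1, other thresholds and centring on exon length (lowess, fraction 0.3). Python 3.11.15, numpy 2.4.6, pandas 2.3.3, statsmodels 0.14.6, scipy 1.17.1, matplotlib 3.10.9 and biopython 1.88 were used, and the intervals and the fold filter were tested on simulated counts. Values of some single genes are left out of the text.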

Additional observations from a re-analysis of the deposited data

How the results depend on the processing

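No paired analysis was possible because there is 1 library per genotype, and no replicate could be left out. Of 96 values recomputed with other settings, 76 stayed within their interval or tolerance, 17 moved and 3 reversed. No log2 ratio of a member changed sign. Adding a pseudocount of 1 to both RPKM gave Ifitm1 3.35 for PαA over αA and 3.11 for PαA over N. For Ifitm2, unique reads gave -2.36, 3.07 and 0.70 for αA over N, PαA over αA and PαA over N. For Ifitm2 in PαA over N, TPM gave 1.11, TMM factors 1.54, median-of-ratios factors 1.55 and centring on exon length 1.03, and centring gave 1.96 for PαA over αA. Junction reads, added after the data were seen, gave Ifitm1 2.57 for PαA over N, Ifitm2 -2.30, 2.92 and 0.62 in the order above, and Ifitm3 0.40 for PαA over αA. With unique reads, 1 member was past 2-fold for αA over N, and with a fold of 1.5 it was also 1. For PαA over N, 2 of 3 were past it with unique reads and with centring, where Ifitm3 stood at 0.98. The median log2 ratio of type I targets for αA over N was 0.019 with TMM factors and -0.0047 with centring, and that of interferon-γ targets 0.073 and 0.0024, so the sign of these medians depends on the scaling. For PαA over N, TMM factors and centring gave -0.21 and -0.12 for type I and -0.14 and -0.13 for interferon-γ targets. The cause of these shifts was not tested. Depth limits Ifitm1 in N and αA, with 30 and 19 reads.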
